A study of Mus musculus with 27 samples.

Results

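The Brn3 POU factors are 3 genes of the mouse genome, Pou4f1 (Brn3a), Pou4f2 (Brn3b) and Pou4f3 (Brn3c). They were taken from the deposited table by gene symbol. The 3 genes stand among 30735 genes, and their 4 transcripts among 88198 transcripts. Pou4f3 (ENSMUSG00000024497) lies on the plus strand of chromosome 18, and the other 2 are placed further on with their sequences. All 3 passed the filter on low counts in the RGC, the retinal and the brain fits.

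Brn3 proteins are transcription factors with a POU-specific domain and a POU homeodomain, which together bind DNA. In the mouse retina they are best known from retinal ganglion cells (RGCs), which send the output of the eye to the brain. Brn3b acts early, after the proneural factor Atoh7, in the differentiation and survival of these cells, Brn3a appears later and shapes their dendrites, and Brn3c marks a small subset and is best known from the hair cells of the inner ear. In the brain, Brn3a is also a factor of the medial habenula and of midbrain neurons, including those of the superior colliculus.

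All mice were of the C57Bl/6 strain. The retinal groups carried 1 allele that expresses alkaline phosphatase (AP) from a Brn3 locus, and AP-positive cells were bound to magnetic beads with an antibody against AP (the RGC fraction), while the unbound cells were kept as supernatant (SN). KO retinas carried the AP allele over a null allele of the same gene (Brn3aAP/KO or Brn3bAP/KO). HET retinas carried it over the wild-type allele (Brn3aAP/WT or Brn3bAP/WT), so that no retinal group was free of an AP allele and the HET groups had 1 intact copy. At postnatal day 3 (P3), Brn3b KO, Brn3b HET, Brn3a KO and Brn3a HET retinas were sampled, and at embryonic day 15 (E15) Brn3b KO and Brn3b HET retinas. Each of these 6 combinations gave 2 RGC libraries and 1 SN library, 12 and 6 in all. The AP allele decides which cells were bound, so the Brn3a and Brn3b fractions hold different cells by design. Which parts of each gene the AP and the null alleles lack is not given in the sources used here. Wild-type P3 brain gave 9 libraries, with 3 of the superior colliculus (SC), 3 of the lateral geniculate nucleus (LGN), 1 of the pretectal area and 2 that the labels call whole brain and the protocol describes as pools of the remaining sections, called remaining brain here. Nothing in the labels says that libraries of a group came from separate animals, so the p-values measure only the spread between these libraries. Each SN group is 1 library, so no spread was measured there, and tests of RGC against SN assume that of the RGC libraries.

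A retinal library summed to between 28905675 and 37394655 estimated counts, and a brain library to between 10122962 and 13769685. The title of Brn3a KO RGC replicate 2 names Brn3a and its genotype entry names Brn3b, and libraries were grouped by title. The source names of all Brn3b retinal libraries name Brn3a and P3, also at E15, while their titles, genotype entries and ages name Brn3b and the age used here. Brn3a KO RGC replicate 2 held 10.9 CPM (counts scaled to library sizes adjusted by TMM) of Pou4f1 and 266 CPM of Pou4f2, close to the other Brn3a KO RGC library at 16.6 and 389 CPM and far from the Brn3b KO RGC libraries at P3. The summed level of 16 RGC markers was 7460 to 12800 CPM in the RGC libraries of Brn3a KO, Brn3a HET and both E15 groups, 4240 to 6010 CPM in Brn3b HET at P3 and 1740 to 2050 CPM in Brn3b KO at P3, against 850 to 3930 CPM in SN. The summed level of 14 microglia markers was 924 to 5220 CPM in the RGC libraries and 9.33 to 35.3 CPM in SN, so the bead-bound fraction held microglial RNA beside that of RGCs. In bulk RNA of this kind, fewer cells of a type and less RNA per cell cannot be told apart.

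Pou4f1 (ENSMUSG00000048349) lies on the minus strand of GRCm38 at chr14:104461676-104467999 and Pou4f2 (ENSMUSG00000031688) on the minus strand at chr8:78433010-78436645. Pou4f2 and Pou4f3 have 1 transcript each in the deposited table, with 3204 and 2360 bases in 2 exons, of which the second holds most of the coding sequence. Pou4f1 has 2. Pou4f1-001 (4445 bases, 3 exons) is protein coding, and its last exon of 2869 bases is entirely 3′ UTR. Pou4f1-002 (799 bases, 2 exons) is annotated as a processed transcript, and 572 of its bases overlap that 3′ UTR, leaving 227 bases of its own. The split of counts between the Pou4f1 transcripts is therefore an estimate of the counting program.

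How far the counts of the paralogs can mix depends on the sequence they share. The longest run common to Pou4f1-001 and Pou4f2-001 is 71 bases long and lies in the coding part of exon 2 of each gene (chr14:104466054-104466124 and chr8:78435062-78435132, minus strand), in the stretch that encodes the POU-specific domain. It is shown here in capitals, 5′ to 3′, from GENCODE M21 transcripts (GRCm38), with 30 bases on each side in lower case:
Pou4f1-001: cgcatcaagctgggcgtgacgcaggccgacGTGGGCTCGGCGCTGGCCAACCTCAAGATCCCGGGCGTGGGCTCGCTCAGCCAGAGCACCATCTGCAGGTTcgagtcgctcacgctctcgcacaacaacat
Pou4f2-001: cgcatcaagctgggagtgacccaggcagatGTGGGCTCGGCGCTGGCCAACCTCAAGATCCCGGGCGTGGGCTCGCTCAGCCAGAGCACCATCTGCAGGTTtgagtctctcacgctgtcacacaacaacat
This run is shorter than the 76-base reads of the retinal libraries, and the transcripts share 0 runs of 76 bases, 23 of 50 bases and 63 of 30 bases. Pou4f1-001 and Pou4f3-001 share at most 41 bases in a row, and Pou4f2-001 and Pou4f3-001 at most 35. A 76-base read without mismatches thus belongs to 1 of the 3 genes, and the shared stretches are a small part of transcripts of 2360 to 4445 bases.

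The 2 loci that carried AP differ in the sequence before their start sites. The 250 bases upstream are shown 5′ to 3′ from RefSeq (GRCm38.p6, minus strand, chr14:104468000-104468249 for Pou4f1 and chr8:78436648-78436897 for Pou4f2), with E-boxes (CANNTG, the motif of basic helix-loop-helix factors such as Atoh7) and TATAA in capitals:
Pou4f1: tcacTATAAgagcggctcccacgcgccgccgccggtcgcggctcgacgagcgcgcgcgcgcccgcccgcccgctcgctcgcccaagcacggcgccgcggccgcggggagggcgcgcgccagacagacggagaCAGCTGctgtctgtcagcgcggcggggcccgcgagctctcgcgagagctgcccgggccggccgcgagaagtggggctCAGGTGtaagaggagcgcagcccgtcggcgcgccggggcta
Pou4f2: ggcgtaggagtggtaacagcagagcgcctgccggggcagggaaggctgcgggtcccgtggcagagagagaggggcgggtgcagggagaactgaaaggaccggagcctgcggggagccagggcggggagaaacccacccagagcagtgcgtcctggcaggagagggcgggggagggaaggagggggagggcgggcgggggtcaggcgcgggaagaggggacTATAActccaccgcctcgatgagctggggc
In windows of 300 bases (250 before and 50 after the start), that of Pou4f1 had 78.3% GC and 57 CpG, more CpG than 99.8% of 32817 mouse promoters of that length. That of Pou4f2 had 69.7% GC and 18 CpG, more CpG than 70.3% of them. Both strands were searched. Pou4f1 held 2 E-boxes, 118 and 41 bases upstream by their first base, and Pou4f2 held 0, where 72.3% of all promoters hold at least 1. TATAA stood 30 bases upstream of Pou4f2 and 246 bases upstream of Pou4f1 (24.9% of all promoters hold it). The Brn3 core ATTAAT was in neither window (4.8% of all promoters), nor was TAATTA (5.3%). A match is a description of these letters, not a site of binding.

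In the RGC libraries each gene had its own pattern of levels. Pou4f1 was highest in Brn3a HET at P3, at 484 and 443 CPM, followed by Brn3b HET at P3 (170 and 249 CPM) and Brn3b HET at E15 (232 and 81.7 CPM), and these 2 Brn3b HET groups overlapped. Pou4f2 lay between 188 and 389 CPM in every group with an intact copy of Brn3b, of which the Brn3b HET groups had only 1. The group means were 328 CPM in Brn3a KO, 273 CPM in Brn3b HET at E15, 247 CPM in Brn3a HET and 237 CPM in Brn3b HET at P3, and each of these overlapped the next in that order. Pou4f3 split the fractions of P3 by the selecting locus. Its 4 Brn3a RGC values, all of P3, ranged between 63.1 and 99.3 CPM, whereas its 4 Brn3b RGC values at P3 were 3.4 to 9.94 CPM. The Brn3b RGC values at E15, an age without Brn3a libraries, were 0.347 to 3.23 CPM.

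**Figure D1:**
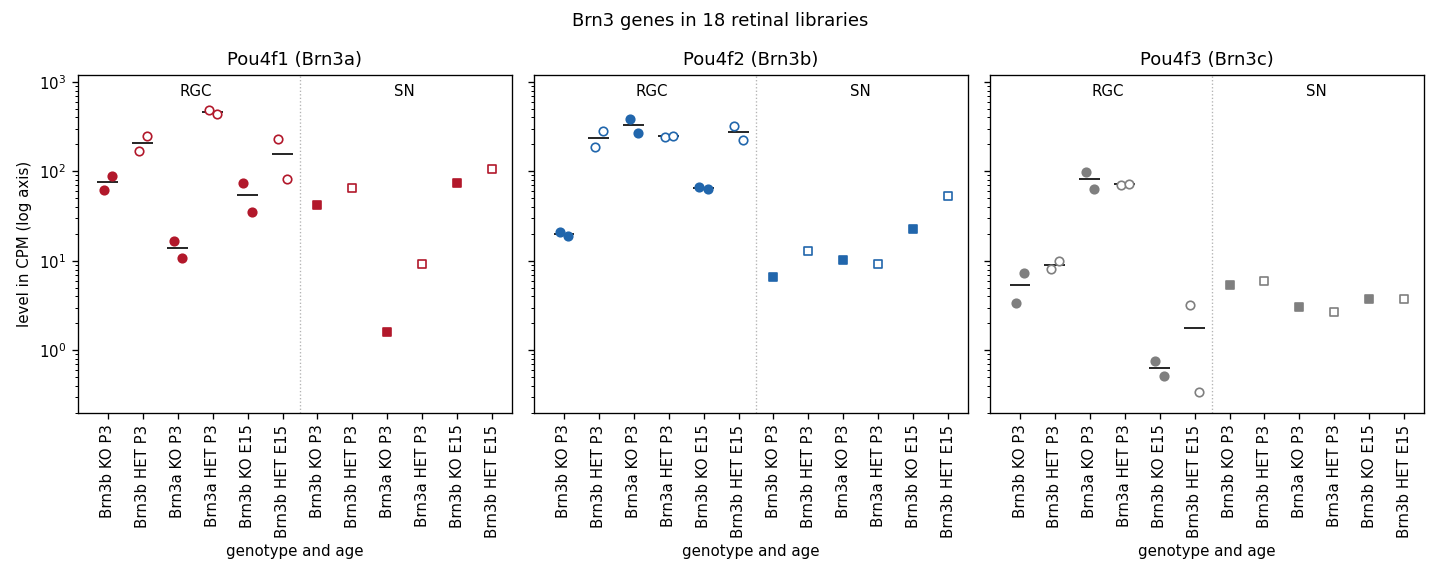
Levels of the 3 Brn3 genes in CPM (log axis) in 12 RGC libraries (circles) and 6 SN libraries (squares) by genotype and age; filled symbols are KO, open symbols HET, and a bar marks the mean of the 2 RGC libraries. Pou4f2 stays between 188 and 389 CPM in all RGC groups other than Brn3b KO, and Pou4f3 is highest in the Brn3a fractions.

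The loss of Brn3a was checked first. Pou4f1 stood at 16.6 and 10.9 CPM in Brn3a KO RGC, against 484 and 443 CPM in Brn3a HET RGC, so that the KO mean was 2.97% of the HET mean and the groups did not overlap. It fell 33.3-fold (log2 fold change -5.06 ± 0.56 SE, adjusted p = 0.0258, edgeR's quasi-likelihood test with Benjamini-Hochberg adjustment over 16673 genes). In this comparison 0.018% of the genes tested were called (3 genes), and without any 1 of the 4 libraries the log2 fold change was -5.42 to -4.77 while the adjusted p was 0.126 to 0.494. The deletion itself defines the groups, so this is a check of the labels and not a finding.

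The other members did not pass the test in Brn3a KO. Pou4f2 was 389 and 266 CPM in Brn3a KO and 242 and 252 CPM in Brn3a HET, with both KO libraries above both HET libraries. Its log2 fold change was 0.42 ± 0.25 (SE), with a 95% confidence interval of -0.13 to 0.98 and an adjusted p of 1 by edgeR. Pou4f3 was 99.3 and 63.1 CPM in Brn3a KO and 70.8 and 72 CPM in Brn3a HET, with the KO libraries on either side of the HET libraries (log2 fold change 0.20 ± 0.60, interval -1.14 to 1.54, adjusted p = 1 by edgeR). Changes inside these intervals are not excluded, and the intervals are no limit of detection. With 2 libraries a group, larger changes also failed the test in this comparison. The gene Foxp2, at -2.42 ± 0.40, did not pass (adjusted p = 0.236 by edgeR).

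The loss of Brn3b left more of its own transcript behind. At P3, Pou4f2 was 21.3 and 18.8 CPM in Brn3b KO RGC and 188 and 286 CPM in Brn3b HET RGC (8.45% of the HET mean), and it fell 12-fold (log2 fold change -3.59 ± 0.28, adjusted p = 0.00288 by edgeR, 3.41% of genes called). Without KO replicate 2 the log2 fold change was -3.49 and the adjusted p 0.0577. At E15, Pou4f2 was 66.1 and 63.1 CPM in Brn3b KO RGC and 323 and 222 CPM in Brn3b HET RGC (23.7% of the HET mean), a 4.26-fold fall (log2 fold change -2.09 ± 0.26, adjusted p = 0.0048 by edgeR, 1.85% of genes called). The KO and HET libraries did not overlap at either age. As for Brn3a, the fall of the disrupted gene is a check of the labels. Whether the remaining reads come from the AP allele, the null allele or other cells was not tested.

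Pou4f1 was lower in every Brn3b KO library than in every Brn3b HET library of the same age, without passing the test. At P3 it was 62.6 and 89.1 CPM in Brn3b KO RGC and 170 and 249 CPM in Brn3b HET RGC (36.2% of the HET mean, log2 fold change -1.49 ± 0.48, adjusted p = 0.13 by edgeR). At E15 it was 74 and 35.6 CPM in Brn3b KO RGC and 232 and 81.7 CPM in Brn3b HET RGC (34.9%, log2 fold change -1.53 ± 0.48, adjusted p = 0.193 by edgeR), and with 1 library left out it was -2.14 to -0.57. It passed without HET replicate 2 (-2.08, adjusted p = 0.0398 by edgeR) and was smallest without HET replicate 1 (-0.57, adjusted p = 0.598 by edgeR). DESeq2 called both, with adjusted p of 0.0159 at P3 and 0.018 at E15. Pou4f3 was 3.4 and 7.35 CPM in Brn3b KO RGC and 8.12 and 9.94 CPM in Brn3b HET RGC at P3 (log2 fold change -0.77 ± 0.63, adjusted p = 0.543 by edgeR). At E15 Pou4f3 was 0.766 and 0.519 CPM in Brn3b KO RGC and 3.23 and 0.347 CPM in Brn3b HET RGC, where the HET libraries lie on either side of the KO libraries.

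The RGC markers moved with these values, and their part in them was not tested. At P3, where 3.41% of all genes were called, 12 of 16 RGC markers were lower in Brn3b KO RGC and 0 were higher (median log2 fold change -1.58, against 0.01 over all genes tested). Among them were Slc17a6, a vesicular glutamate transporter, at -2.25 ± 0.37 (adjusted p = 0.0197 by edgeR), and Nefl, a neurofilament subunit, at -1.83 ± 0.33 (adjusted p = 0.0241 by edgeR). Of 14 microglia markers 10 were lower and 0 higher (median -1.03). Amacrine markers, of the inner retina, summed to 893 to 1100 CPM in Brn3b KO RGC and 500 to 541 CPM in Brn3b HET RGC at P3, and to 448 to 525 CPM in Brn3b KO RGC and 150 to 155 CPM in Brn3b HET RGC at E15. Of these 9 markers, 1 was called higher and 0 lower at P3, and 2 were called higher and 0 lower at E15. Gad2 alone averaged 308 CPM in Brn3b KO RGC and 99.2 CPM in Brn3b HET RGC at E15. Set against the summed RGC markers of the same library, Pou4f1 at P3 was 3.59% and 4.34% in Brn3b KO RGC and 4.01% and 4.14% in Brn3b HET RGC, so the KO values lay on either side of the HET values. The 16 markers include Nefl and Gap43, which are also among the genes known to need Brn3b that are read below. A share of this sum is therefore no neutral measure of RGC content in Brn3b KO. Pou4f2 at P3 was 1.22% and 0.916% of the markers in Brn3b KO RGC and 4.45% and 4.76% in Brn3b HET RGC, and stayed apart. At E15 the marker sums overlapped, at 7460 to 8700 CPM in Brn3b KO RGC and 7490 to 12800 CPM in Brn3b HET RGC. Of the 16 markers, 6 were lower and 0 higher there (median -1.09, against -0.03 over all genes), where 1.85% of all genes were called. Pou4f1 there was 0.851% and 0.477% of the markers in Brn3b KO RGC and 1.82% and 1.09% in Brn3b HET RGC, and did not overlap. These relative values were not tested, and in the test between ages the KO effect on Pou4f1 did not differ detectably (0.04 ± 0.67 on the log2 scale, adjusted p = 1 by edgeR).

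**Figure D2:**
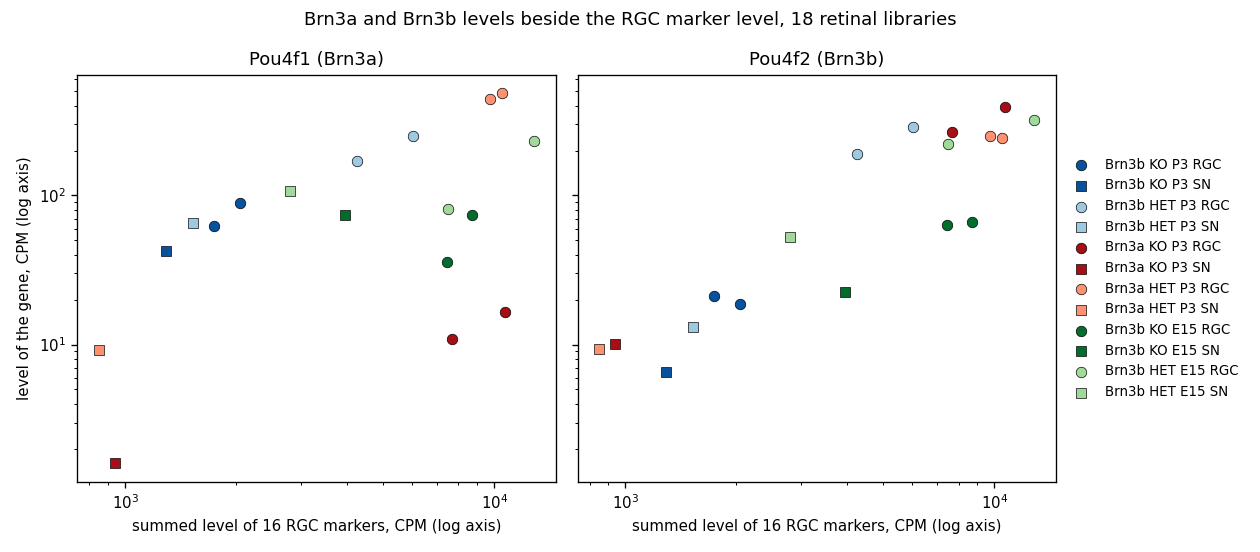
Level of Pou4f1 (left) and Pou4f2 (right) against the summed level of 16 RGC markers, both in CPM on log axes, in 18 retinal libraries (circles RGC, squares SN). The Brn3b libraries at P3 lie along 1 line for Pou4f1, at 3.29% to 4.34% of the marker sum in RGC and SN alike, whereas the Brn3a KO libraries lie far below it.

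The interaction of genotype with locus and with age was tested for each gene. Pou4f2 is disrupted in Brn3b KO and Pou4f1 in Brn3a KO. The direction of their differences between the loci therefore follows from the genotypes and is no finding. The change of Pou4f2 in KO RGC at P3 differed between the loci, by -4.01 ± 0.37 on the log2 scale (Brn3b minus Brn3a, adjusted p = 0.0136 by edgeR, 0.012% of genes called, 2 genes). The adjusted p was 0.083 to 0.0898 without either Brn3a HET or either Brn3b KO library, with values of -4.09 to -3.9. The same contrast was 3.57 ± 0.69 for Pou4f1 (adjusted p = 0.124) and -0.97 ± 0.87 for Pou4f3 (adjusted p = 0.85), both by edgeR. Between ages, the log2 fold change of Pou4f2 in Brn3b KO differed (P3 minus E15) by -1.5 ± 0.36 (adjusted p = 0.177 by edgeR, 0.192% of genes called), which did not pass, while DESeq2 gave an adjusted p of 0.00865. For Pou4f1 the difference between ages was 0.04 ± 0.67 and for Pou4f3 0.71 ± 1.01 (adjusted p of 1 and 0.822 by edgeR).

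**Figure D3:**
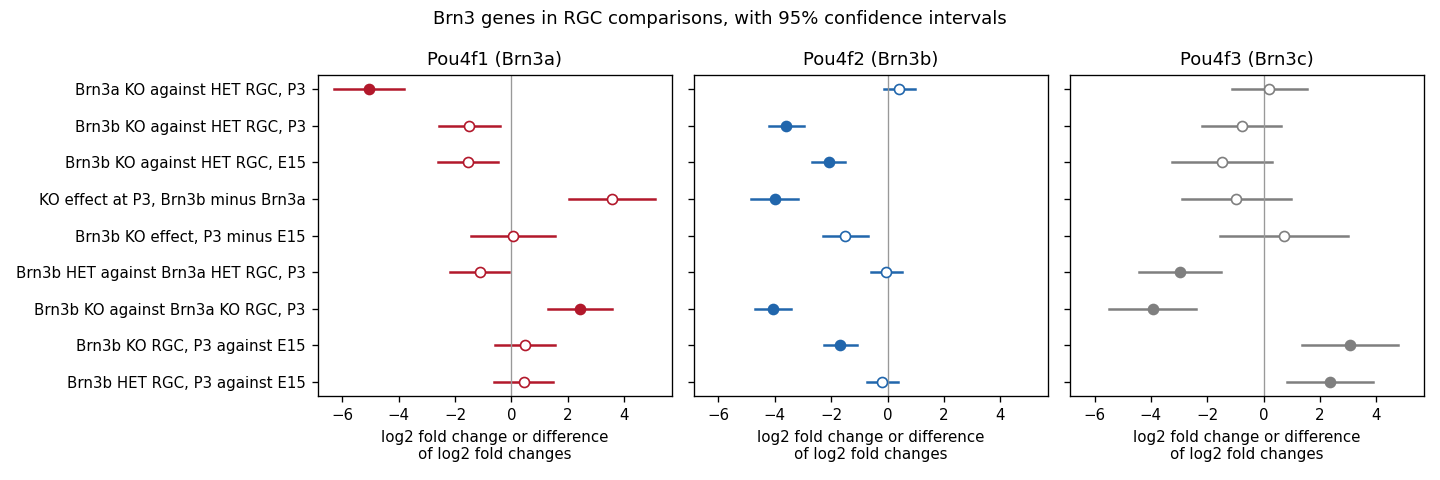
Log2 fold changes, or differences between log2 fold changes for the rows of KO effects, of the 3 Brn3 genes in 9 RGC comparisons, with 95% confidence intervals from edgeR; filled points have an adjusted p under 0.05. Filled points of Pou4f1 are its fall in Brn3a KO and its higher level in Brn3b KO than in Brn3a KO, and those of Pou4f3 separate the Brn3b from the Brn3a fractions and P3 from E15.

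Between the selecting loci, Pou4f3 was the member that passed the test in HET RGC. At P3 it was 8.12 and 9.94 CPM in the Brn3b fraction and 70.8 and 72 CPM in the Brn3a fraction, 7.84-fold lower (log2 fold change -2.97 ± 0.65, adjusted p = 0.0425 by edgeR, 3.85% of genes called), and no library overlapped. The call rests on all 4 libraries, since without any 1 of them the adjusted p was 0.0963 to 0.286 with log2 fold changes of -3.15 to -2.85. Pou4f2 was 188 and 286 CPM in Brn3b HET and 242 and 252 CPM in Brn3a HET (log2 fold change -0.04 ± 0.25, interval -0.60 to 0.51, adjusted p = 0.922 by edgeR). Pou4f1 was 170 and 249 CPM in Brn3b HET and 484 and 443 CPM in Brn3a HET (-1.13 ± 0.47, adjusted p = 0.152 by edgeR). The lower Pou4f1 in the Brn3b fraction goes with a lower sum of RGC markers in that fraction, whose part was not tested, and DESeq2 called it (adjusted p = 0.0454). As a share of the summed RGC markers, Pou4f1 was 4.01% and 4.14% in Brn3b HET and 4.63% and 4.55% in Brn3a HET, while Pou4f3 was 0.192% and 0.165% in Brn3b HET and 0.678% and 0.74% in Brn3a HET.

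The KO fractions were compared in the same way, and here Pou4f2 is disrupted in Brn3b KO and Pou4f1 in Brn3a KO, so that the direction of these 2 genes follows from the genotypes and is no finding. In KO RGC at P3, Pou4f3 was 15.4-fold lower in Brn3b KO than in Brn3a KO (log2 fold change -3.94 ± 0.68, adjusted p = 0.00277 by edgeR) and Pou4f2 16.6-fold lower (-4.06 ± 0.28, adjusted p = 0.000185), while Pou4f1 was 5.41-fold higher (2.44 ± 0.50, adjusted p = 0.00575). Without Brn3b KO replicate 2 the log2 fold change of Pou4f3 was -4.60. Of all genes tested, 36% were called in this comparison. All 16 RGC markers and all 14 microglia markers were lower in Brn3b KO than in Brn3a KO (median log2 fold changes of -2.41 and -1.66), and their part was not tested.

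With age, Pou4f3 was higher at P3 than at E15 in the Brn3b fractions. It was 8.12 and 9.94 CPM in Brn3b HET RGC at P3 and 3.23 and 0.347 CPM at E15, 5.1-fold higher (log2 fold change 2.35 ± 0.69, adjusted p = 0.0295 by edgeR, 28.8% of genes called). The E15 libraries differed widely, and the value was 4.69 without E15 replicate 1 and 1.5 without E15 replicate 2 (adjusted p of 0.00241 and 0.0546). Without P3 replicate 1 or 2 the adjusted p was 0.0679 or 0.101. In Brn3b KO RGC it was 3.4 and 7.35 CPM at P3 and 0.766 and 0.519 CPM at E15, 8.37-fold higher (3.07 ± 0.76, adjusted p = 0.0157 by edgeR, 25.4% of genes called). That call was lost without E15 replicate 1, E15 replicate 2 or P3 replicate 2 (adjusted p of 0.0705, 0.101 and 0.0835). Pou4f2 was 3.21-fold lower at P3 than at E15 in Brn3b KO RGC (-1.68 ± 0.26, adjusted p = 0.0015 by edgeR). The summed RGC markers there were 1740 to 2050 CPM at P3 and 7460 to 8700 CPM at E15, and as a share of them Pou4f2 was 1.22% and 0.916% at P3 and 0.76% and 0.845% at E15. The part of the markers in the lower level was not tested. In Brn3b HET RGC Pou4f2 did not pass (-0.19 ± 0.25, adjusted p = 0.614), and the difference between the genotypes is the interaction above, which did not pass either. Pou4f1 did not pass in either genotype (0.48 ± 0.47 in KO and 0.43 ± 0.47 in HET, adjusted p of 0.508 and 0.527 by edgeR). With 1 library left out these values were 0.03 to 1.08 in KO and -0.13 to 1.36 in HET. As a share of the RGC markers, Pou4f1 was 3.59% and 4.34% at P3 and 0.851% and 0.477% at E15 in Brn3b KO RGC. In Brn3b HET RGC this share was 4.01% and 4.14% at P3 and 1.82% and 1.09% at E15. That of Pou4f2 in Brn3b HET RGC was 4.45% and 4.76% at P3 and 2.53% and 2.97% at E15. The ages did not overlap in these shares, which were not tested.

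The make-up of the family was compared per transcript length, as each gene's share of the summed CPM per kb of the 3 genes. In Brn3a KO RGC, Pou4f1 made up 2.85% to 4.36% of it, Pou4f2 71% to 73.5% and Pou4f3 23.7% to 24.6%. In Brn3a HET RGC, Pou4f1 made up 65% to 68%, Pou4f2 22.9% to 25.2% and Pou4f3 9.1% to 9.79%. The summed level per kb was 113 to 171 in Brn3a KO RGC and 311 to 330 in Brn3a HET RGC. The own levels of Pou4f2 and Pou4f3 did not pass the test in this comparison. In Brn3b KO RGC at P3, Pou4f1 made up 79.2% to 82.9% and Pou4f2 11.2% to 17.1%. In Brn3b HET RGC at P3 the shares were 55.5% to 56.7% for Pou4f1 and 40.9% to 42.5% for Pou4f2. The summed level per kb was 38.9 to 52.5 in Brn3b KO RGC at P3 and 144 to 210 in Brn3b HET RGC at P3. At E15 Pou4f3 made up at most 0.64% in any RGC library, with Pou4f1 at 49.7% to 63.8% in Brn3b KO and 36.8% to 52.2% in Brn3b HET.

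These shares depend on how the short Pou4f1-002 is counted, since dividing by its 799 bases gives it much weight. It received 19.2% to 31.9% of the Pou4f1 counts in the 15 retinal libraries other than Brn3a KO. In the Brn3a KO RGC libraries it received 21.8% and 6.98% (119 and 25 estimated counts), and in Brn3a KO SN it received 0 counts. With Pou4f1-001 alone, Pou4f1 made up 41.4% to 44.2% and Pou4f2 39.9% to 42.2% of the family in Brn3a HET RGC, with Pou4f2 ahead in replicate 2. Pou4f1 made up 31.4% to 31.5% in Brn3b HET RGC at P3, where Pou4f2 then led with 64.7% to 65.6%. At E15, Pou4f1 was then 21.5% to 36.8% in Brn3b KO RGC and 16.3% to 27.8% in Brn3b HET RGC, and Pou4f2 led in all 4 libraries. Which of the 2 genes leads in HET RGC of either locus, and in Brn3b KO RGC at E15, is thus not fixed by these data. The lead of Pou4f2 in Brn3a KO RGC and of Pou4f1 in Brn3b KO RGC at P3 (56.3% to 62.4% with Pou4f1-001 alone) held on both counts. The disrupted gene is part of the sum, so a low share of that gene in its own KO follows from the genotype and is no finding.

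**Figure D4:**
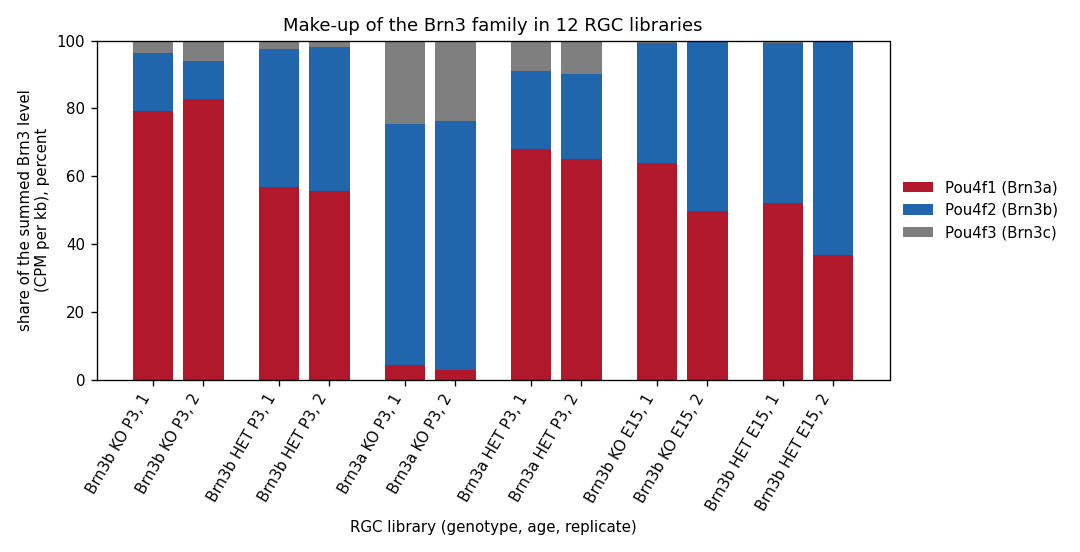
Share of each Brn3 gene in the summed CPM per kb of the 3 genes, in percent, for each of 12 RGC libraries, with all transcripts summed. Pou4f2 is the main member in Brn3a KO and Pou4f1 in Brn3b KO at P3, where the disrupted gene is part of the sum. Pou4f3 is visible mainly in the Brn3a fractions.

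Enrichment by the beads differed between the members and the loci. The beads bound cells that express AP from the Brn3a or the Brn3b locus. More Pou4f1 in the Brn3a fraction and more Pou4f2 in the Brn3b fraction is thus favoured by the selection and is no finding. With 1 SN library per group, the spread in these tests comes from the RGC libraries. In the Brn3a fraction at P3, RGC against SN of the same genotype and averaged over KO and HET, Pou4f1 was 20.8-fold higher (log2 fold change 4.38 ± 0.54, adjusted p = 0.000116), Pou4f2 29.3-fold (4.87 ± 0.28, adjusted p = 8.25e-07) and Pou4f3 26.6-fold (4.73 ± 0.70, adjusted p = 0.000347), all by edgeR over 17695 genes, of which 53.6% were called. SN held 10.1 CPM of Pou4f2 in Brn3a KO and 9.3 CPM in Brn3a HET, against at least 242 CPM in every Brn3a RGC library. The single SN libraries of KO and HET differed for Pou4f1, at 1.6 and 9.24 CPM, and its log2 enrichment was 3.11 in KO and 5.65 in HET, which are also the values without the SN library of the other genotype.

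In the Brn3b fraction Pou4f2, the gene of the selecting locus, alone passed by edgeR. At P3 it was 7.47-fold higher in RGC than in SN (2.90 ± 0.25, adjusted p = 2.89e-05 by edgeR, 13.2% of genes called), as the mean of 1.62 in KO and 4.19 in HET on the log2 scale, and it was 1.59 without HET SN and 4.16 without KO SN. Pou4f1 was 1.26 ± 0.43 (adjusted p = 0.0813) and Pou4f3 0.29 ± 0.56 (adjusted p = 0.793). At E15 Pou4f2 was 3.83-fold higher in RGC than in SN (1.94 ± 0.23, adjusted p = 0.000422 by edgeR, 22.1% of genes called), Pou4f1 was 0.05 ± 0.41 (adjusted p = 0.991), and Pou4f3 was -1.81 ± 0.59 (adjusted p = 0.0525), with 3.78 CPM in KO SN and 3.76 CPM in HET SN against 0.347 to 3.23 CPM in the 4 E15 RGC libraries. For Pou4f3 at E15 the value was -2.99 without HET RGC replicate 1 and -1.39 without HET RGC replicate 2 (adjusted p of 0.00214 and 0.0221). Pou4f1 at E15 was 35.6 to 232 CPM in the 4 RGC libraries, against 74.4 CPM in KO SN and 108 CPM in HET SN, so that both SN libraries lay inside the range of the RGC libraries.

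The same 3 genes were measured in the brain, in libraries with reads of another length (125 bases), and no test was made between the tissues. All 3 were highest in the SC. Pou4f1 was 61, 75.7 and 70.1 CPM in the SC, against 0.292, 0.369 and 0.411 CPM in the LGN (3 to 5 counts a library), 3.1 CPM in the single pretectal library and 14.3 and 7.15 CPM in the remaining brain. Pou4f2 was 31.5, 28.3 and 30.9 CPM in the SC, against 0, 2 and 0 counts in the LGN, 5 counts in the pretectal area and 9.24 and 3.45 CPM in the remaining brain. Pou4f3 was 2.41, 2.61 and 2.63 CPM in the SC, 0 counts in all 3 LGN libraries and in the pretectal area, and 1.07 and 0.0862 CPM in the remaining brain. No SC library overlapped a library of another region for any of the 3 genes.

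Against the LGN, Pou4f1 was 186-fold higher in the SC (log2 fold change 7.54 ± 0.34, adjusted p = 5.66e-06 by edgeR, 10.2% of genes called). Pou4f2 also passed (adjusted p = 4.31e-05 by edgeR). Its summed counts were 1033 in the SC and 2 in the LGN, a 545-fold ratio of counts per library size with an exact 95% interval of 151 to 4510 that covers counting error only. Pou4f3 had 87 counts in the SC and 0 in the LGN, at least 30.6-fold higher against a floor of 3 counts over the LGN group (adjusted p = 0.00847 by edgeR). Against the remaining brain, Pou4f1 was 6.43-fold higher in the SC (2.68 ± 0.27, adjusted p = 0.000532 by edgeR) and Pou4f2 4.76-fold (2.25 ± 0.40, adjusted p = 0.0101), with 6.94% of genes called, and Pou4f3 did not pass (2.13 ± 0.84, adjusted p = 0.196). The 2 remaining-brain libraries differed, and without replicate 1 the log2 values were 3.27 for Pou4f1, 3.13 for Pou4f2 and 4.72 for Pou4f3, which then passed (adjusted p = 0.0458 by edgeR). Against the remaining brain, Pou4f1 was lower in the LGN (log2 fold change -4.85 ± 0.37, adjusted p = 6.92e-05 by edgeR, 10.9% of genes called), or -4.27 on the log2 scale without remaining-brain replicate 1. Pou4f2 was lower as well (adjusted p = 0.00042), and Pou4f3 did not pass (adjusted p = 0.0584).

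**Figure D5:**
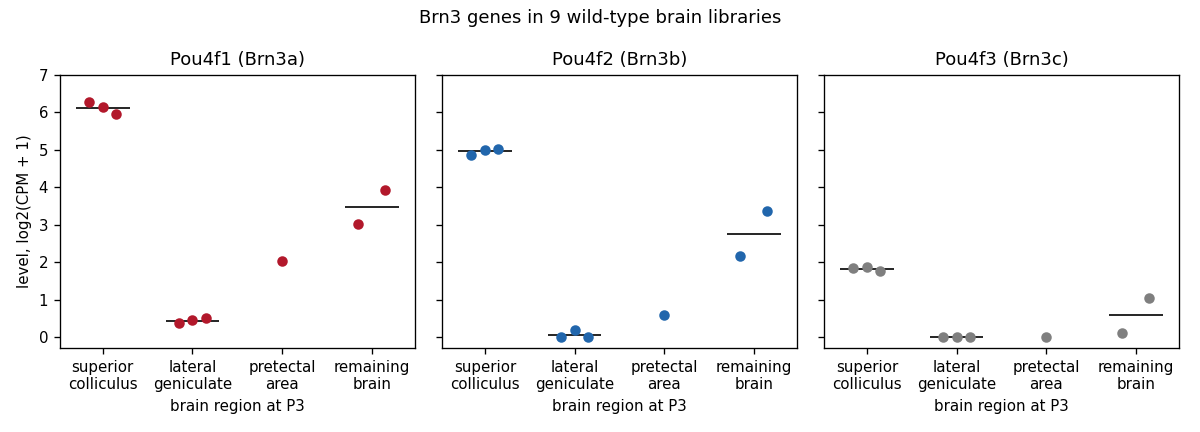
Levels of the 3 Brn3 genes as log2(CPM + 1) in 9 wild-type P3 brain libraries; each point is a library and a bar marks the mean of the log2 values. The 3 SC libraries are above all others for each gene, and the LGN libraries are at or near 0.

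Region markers went with these levels. Pax7, a factor of the dorsal midbrain, averaged 139 CPM in the SC and 0.734 CPM in the LGN, while Tcf7l2, a thalamic factor, averaged 134 CPM in the SC and 719 CPM in the LGN. Of 8 tectal midbrain markers 5 were higher and 0 lower in the SC than in the LGN (median log2 fold change 2.17, against 0.02 over all genes). Markers of the habenula, another known site of Brn3a, summed to 72.8 to 96.7 CPM in the SC, 58.7 to 75.1 CPM in the LGN and 53.6 to 94 CPM in the remaining brain, ranges that overlap between the SC and each of the others. Single habenula markers moved both ways. Of 8, 1 was higher and 2 were lower in the SC than in the LGN (median log2 fold change 0.62, 10.2% of all genes called). Against the remaining brain, 2 were higher and 3 lower in the SC (median -1.92, 6.94% of all genes called).

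The proportions of the family in the SC were similar in the 3 libraries, with Pou4f1 at 65.5% to 72.7%, Pou4f2 at 24.3% to 31.2% and Pou4f3 at 3% to 3.29% of the summed CPM per kb. In the remaining brain Pou4f1 was 65.4% to 66.1% and Pou4f2 29.9% to 32.4%. Pou4f1-002 received 10.2% to 11.9% of the Pou4f1 counts in the SC.

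Genes with the most similar pattern were ranked by the root mean square difference of log2(CPM + 1) after centring each gene, among genes averaging 10 CPM or more. The libraries share their selection, so these are descriptions. Over the 15 retinal libraries other than Brn3a KO, Pou4f1 was closest to Rbpms (0.44), an RNA-binding protein used as an RGC marker, Nell2 (0.47), Nefl (0.51), Nrn1 (0.54) and Scn3b (0.55), where its own spread around its mean was 1.4. Over the 12 retinal libraries other than Brn3b KO, Pou4f2 was closest to Sncg (0.49), a synuclein of RGCs, then Klf2 and Capn3 (0.56 each), Plau and Clstn2 (0.58 each), with an own spread of 1.96. Over 18 retinal libraries Pou4f3 was closest to Opcml (0.61), a cell adhesion protein, Sema3e (0.64), a secreted semaphorin, Gpr123 and Isl2 (0.65 each) and Car10 (0.69), with an own spread of 1.9. Over 9 brain libraries the gene closest to Pou4f1 was Pou4f2, at 0.41, well before Barhl1, a homeobox gene of the SC, at 0.97.

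Of the other POU genes, 10 of 12 were tested. In Brn3a KO RGC 0 were called by edgeR, where 0.018% of all genes were called. In Brn3b KO RGC at E15, where 1.85% of all genes were called, Pou3f3 was higher (2.51 CPM in KO and 0.849 CPM in HET on average, log2 fold change 1.55 ± 0.29, adjusted p = 0.0283 by edgeR) and 0 were lower. In the Brn3a fraction at P3, 5 of 10 were called, close to the 53.6% of all genes. Pou2f2 was higher in RGC than in SN (2.12 ± 0.18, adjusted p = 1.3e-05), and lower ones included Pou3f3 (-2.50 ± 0.21, adjusted p = 1.21e-05) and Pou3f2 (-2.57 ± 0.28, adjusted p = 6.07e-05).

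Factors of RGC fate and genes known from other work to need a Brn3 factor were read in the same comparisons. Of 19 RGC fate factors 0 were called in Brn3a KO RGC by edgeR (median log2 fold change -0.05, against 0.01 over all genes). In Brn3b KO RGC at P3, 1 was higher and 4 were lower, where 3.41% of all genes were called, and at E15 3 were higher and 3 lower, where 1.85% of all genes were called. At E15 Dlx1, a homeobox gene of amacrine and ganglion cell precursors, averaged 282 CPM in Brn3b KO RGC and 39.7 CPM in Brn3b HET RGC (2.81 ± 0.14, adjusted p = 2.22e-05 by edgeR), and Dlx2 went the same way (2.49 ± 0.28, adjusted p = 0.00301). Eomes (Tbr2), a T-box factor of a subset of RGCs, averaged 15 CPM in Brn3b KO RGC and 192 CPM in Brn3b HET RGC at E15 (-3.70 ± 0.37, adjusted p = 0.00221 by edgeR), and at P3 it did not pass (-1.41 ± 0.34, adjusted p = 0.0542). Of 8 genes known to need Brn3b in mouse retina, 3 were lower and 0 higher at each age, against the same 3.41% and 1.85% of all genes at P3 and E15, namely Irx2, Nefl and Gap43 at P3 and Eomes, Irx2 and Mstn at E15. The difference between ages was tested, and 0 of the 8 passed. In Brn3a KO RGC 0 of these 8 were called, and 0 of 6 genes known to depend on Brn3a in mouse sensory ganglia. Over all genes, edgeR called 3 in that comparison, 432 had an unadjusted p under 0.05, and DESeq2 called 56.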

How the data were processed

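RNA was sequenced from 18 retinal and 9 brain libraries. The authors deposited estimated counts per Ensembl transcript, and per the submitters' processing notes Trimmomatic 0.32, Bowtie2 2.2.1, eXpress 1.3.1 and the build GRCm38.p3 were used. Counts were summed per Ensembl gene identifier, rounded to whole numbers and scaled by TMM, and 27 symbols that had become dates were restored.

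Tests used edgeR 4.0.16 (quasi-likelihood, Benjamini-Hochberg over all genes tested, threshold 0.05) in R 4.3.3, with DESeq2 1.42.0 as an alternative. Genes were kept by edgeR's expression filter with a minimum count of 10. The fits held 12 RGC libraries (16673 genes), 18 retinal libraries (17695 genes, for RGC against SN) and 9 brain libraries (15288 genes). The RGC fit was tested on simulated data in the Brn3b KO against HET design at P3, where 15% of genes changed 2-fold and 90% of those changed 4-fold were recovered (16180 genes). Levels per kb divide each transcript's CPM by its length. The members and gene lists were chosen with earlier results of these data known, and levels relative to RGC markers were added after the data were seen. Similar genes were the 5 with the smallest root mean square difference, and genes of a list were named from the 4 with the smallest p in each comparison. The alternatives were another normalization, no filter, DESeq2, other sets of libraries, counts per transcript, a replicate block and each library left out in turn. Some genes of the lists are not reported here.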

Additional observations from a re-analysis of the deposited data

Results flagged for a closer look

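The change of Pou4f2 in KO RGC at P3 differed between the loci by -4.01 on the log2 scale (Brn3b minus Brn3a, adjusted p = 0.0136 by edgeR). Pou4f2 had a log2 fold change of 0.42 in Brn3a KO, with both KO libraries above both HET libraries, and of -3.59 in Brn3b KO at P3, with both KO libraries below both HET libraries. The same opposite order was seen between Brn3a KO at P3 (0.42) and Brn3b KO at E15 (-2.09), and that difference was not tested. The value of 0.42 did not pass the test on its own. Pou4f2 is the gene disrupted in Brn3b KO, so the direction of both differences follows from the genotypes.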

How the results depend on the processing

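Of 285 values under other settings for 45 results, 260 kept their side of the threshold, and so did 210 of 234 values with 1 library left out. The number of called values that changed sign was 0, while values that were not called could change sign with 1 library left out, such as Pou4f3 in Brn3b KO at E15. With only the 2 groups compared, calls were lost for Pou4f1 in Brn3a KO (-5.07), Pou4f2 in Brn3b KO at P3 (-3.59) and E15 (-2.08) and Pou4f3 in Brn3b HET between ages (2.34), and Pou4f1 between HET fractions passed (-1.13). Per transcript, calls were lost for Pou4f1 in Brn3a KO (-4.94), Pou4f3 between HET fractions (-3.00), Pou4f1 between KO fractions (2.25) and Pou4f3 between ages in HET (2.45) and KO (3.20). DESeq2 added Pou4f1 in Brn3b KO at P3 (-1.46) and E15 (-1.53), between HET fractions (-1.17), in RGC against SN at P3 (1.3) and between loci (3.6), Pou4f2 between ages of the KO effect (-1.47), and Pou4f3 in E15 RGC against SN (-1.82) and in LGN against remaining brain (-5.21). Without the filter, 4 of these passed too (1.26, 3.57, -1.78 and -5.74), and with pooled SN so did Pou4f3 at E15 (-1.83). The cause of these shifts was not tested. Of 18 mean shares of the family in RGC, 15 moved by more than the spread between replicates with the main transcript alone, and levels without TMM were 95.5% to 107% of those reported.

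With 1 library left out, the values that crossed the threshold belonged to results that ranged, on the log2 scale, from -5.42 to -4.77 for Pou4f1 in Brn3a KO, from -3.15 to -2.85 for Pou4f3 between HET fractions, from -4.27 to -3.65 for Pou4f2 between loci, from -3.86 to -3.25 for Pou4f2 and from -2.14 to -0.57 for Pou4f1 in Brn3b KO at P3 and at E15, in that order, from 1.5 to 4.69 and 2.40 to 3.50 for Pou4f3 between ages in HET and in KO, from -2.99 to -1.07 for Pou4f3 in E15 RGC against SN, and, for Pou4f3 in the brain, from -6.62 to -3.15 in LGN and 1.25 to 4.72 in SC against the remaining brain.

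A replicate block changed 2 calls, of Pou4f1 in Brn3a KO (-5.09, adjusted p = 0.0693 by edgeR) and Pou4f3 between HET fractions (-2.96, adjusted p = 0.0527 by edgeR). Same-numbered RGC libraries correlated at -0.116 to 0.171, and their numbers were not taken as pairs. In groups of 2 libraries, both replicate numbers give the same correlation by construction. The brain titles carry an M and a number, and whether it marks an animal is not stated. Each SC library correlated best with the LGN library of its own number (0.071 to 0.218), so a pairing of brain libraries is not excluded. The main brain tests did not use it.

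Counts of genes called varied more than those of the members. Under other settings, the 3 genes of Brn3a KO became 0 to 56, the 569 of Brn3b KO at P3 became 0 to 1547, the 308 at E15 became 22 to 792, and the 642 between HET fractions became 19 to 3173. The 5994 between KO fractions became 2528 to 7089, the 4809 and 4240 between ages in HET and in KO became 2253 to 5794 and 2419 to 5146, and the 32 and 2 of the differences between ages and between loci became 12 to 348 and 1 to 334. For RGC against SN, 9484 in Brn3a became 6173 to 9623, 2333 in Brn3b at P3 became 453 to 3525, and 3919 at E15 became 644 to 5224. With 1 library left out, the 569 became 1 to 549, the 308 became 83 to 338, the 642 became 31 to 84, and the 1557, 1061 and 1672 of SC against LGN, SC against remaining brain and LGN against remaining brain became 770 to 1462, 467 to 1066 and 859 to 1548.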
